A study of Mus musculus with 12 samples.

Results

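Tandem transcription start nodes are consecutive pieces of a single first exon, each of which begins at a different transcription start of the same gene. They were taken as all entries of type tandem start with a numeric value in both groups of the Whippet table, which splits every gene into nodes and estimates how often each node is used. There were 8754 such nodes among 115403 nodes of all types, and they formed 3443 events, an event being all tandem starts of 1 first exon. An event had 2 nodes in 2226 cases, 3 in 787, 4 in 288 and more in 142, with up to 11. The first and last start of an event lay a median of 61 bases apart. The 5′ edge of 98.3% of the nodes was an annotated transcript start in GENCODE vM21, which uses the mm10 build of the files. The events were assigned to 3370 genes, of which 3256 were protein coding.

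The libraries came from OT-I CD8+ T cells, which carry a transgenic T cell receptor of 1 specificity for an ovalbumin peptide. Cells from OT-I Tg C57BL/6J mice were transferred into C57BL6/J recipients, which received the peptide with control IgG (Ag, 5 libraries) or the peptide with agonist anti-OX40 and anti-41BB antibodies (Ag+Costim, 5 libraries). CD8+ T cells were sorted from spleen and lymph nodes after 4 days according to the labels, and OT-I cells that had not been transferred served as Naive controls (2 libraries). The study used mice of both sexes and gives a common age range for them, from young adults up to several months, but no age for each library. It describes the libraries as individual biological replicates, and whether cells of several recipients were joined in a library is not given in the sources used here. OX40 and 41BB are costimulatory receptors of the tumor necrosis factor receptor family on activated T cells.

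RNA polymerase II rarely starts a gene at a single base. Core promoters rich in CG usually hold a cluster of starts, and the starts of 1 cluster differ in how much leader they place before the protein. Such leaders are known to carry upstream start codons and pyrimidine tracts that affect translation, while the encoded protein often stays the same.

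Library totals ranged from 24006053 counts (Ag replicate 4) to 49294934. The 8 T cell markers summed to 9597 to 13641 CPM (counts scaled to library size) in Ag, 5551 to 7607 in Ag+Costim and 11031 to 11671 in Naive, and Cd4 was at most 2.44 CPM. The 5 erythroid markers summed to 625 to 6373 CPM in Ag, 14.5 to 222 in Ag+Costim and 150 to 2068 in Naive. The 5 B cell markers gave 109 to 158 CPM in Ag, 22.5 to 59.1 in Ag+Costim and 27.2 to 29.7 in Naive, and the 5 myeloid markers 256 to 347, 189 to 267 and 100 to 140. The part of these other cells in the differences between the groups was not tested, and a change in start use within T cells and a change in the mix of cells cannot be told apart here.

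The tandem starts described first are shown with the 30 bases around them, because neighbouring starts of 1 exon can lie so close that their sequences overlap. Each line runs 5′ to 3′ on the gene's own strand with mm10 coordinates, and the capitals mark the last base before the start (−1) and the first base of the node (+1). Sequences were read from RefSeq promoter windows or from GENCODE vM21 first exons.
Tanc1 start 1 (chr2:59612027-59612056, plus strand): ggccgagcgaggcgCGgggacgggccggag
Tanc1 start 2 (chr2:59612029-59612058, plus strand): ccgagcgaggcgcgGGgacgggccggagcg
Il1rap start 3 (chr16:26581738-26581767, plus strand): cggcggaaagtaagAGgctagtcggggaag
Il1rap start 4 (chr16:26581742-26581771, plus strand): ggaaagtaagaggcTAgtcggggaaggctg
Luc7l start 2 (chr17:26252936-26252965, plus strand): gggcttcaggctgaTAggagcgtctttcct
Luc7l start 3 (chr17:26252951-26252980, plus strand): aggagcgtctttccTCgtcgctgtttgcgg
Sel1l start 1 (chr12:91849143-91849172, minus strand): gggccagggaggccTGggaaggggcgaaga
Sel1l start 2 (chr12:91849115-91849144, minus strand): gaaggaacctgagcAGgaagagcggctgcg
Zfyve27 start 1 (chr19:42170552-42170581, plus strand): cgggcgcggtgacgTCacgggcgcgccacc
Zfyve27 start 2 (chr19:42170579-42170608, plus strand): accgcagagtgagtCGcgtcccggaagcga
Nsg2 start 2 (chr11:32000487-32000516, plus strand): agggctgcttttttCAgcaccacgctctgg
Nlrc3 start 1 (chr16:3976618-3976647, minus strand): acaggaaggaaggtTGaggtggaggacagg
Nlrc3 start 2 (chr16:3976531-3976560, minus strand): aggtctgtcactccCAgccctggcgtgatc
Bcl2 start 1 (chr1:106714260-106714289, minus strand): tccgggtccccgccGAgccgccgccgccaa
Bcl2 start 2 (chr1:106713165-106713194, minus strand): cccgcctcttcaccTTtcagcattgcggag
Ikzf1 start 3 (chr11:11686214-11686243, plus strand): tgaggaagtcattgTGaaagaaagctggga
Kmt2a start 1 (chr9:44881282-44881311, minus strand): cgcctctccctctcGCtgcttcacttacgg
Kmt2a start 2 (chr9:44881260-44881289, minus strand): acttacggggcgaaCAtggcgcacagctgt
The 2 Tanc1 starts lie 2 bases apart and those of Il1rap 4 bases apart, and the first base of the second Kmt2a start opens an ATG. The Bcl2 starts are 1095 bases apart within 1 first exon.

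The letters CA, CG, TA or TG, which hold the pyrimidine and purine usual at a start, stood at −1 and +1 in 48.1% of the 8003 nodes with both bases known. Their share was 52.0% at the most upstream and 46.1% at the most downstream start of an event, and 46.3% of 32851 RefSeq promoters held them at their annotated start, so the nodes lay close to promoters in general. A C at +1 followed by 4 pyrimidines, as in the leaders of many ribosomal protein genes, was found at 2.01% of the nodes and 2.51% of the promoters. The pieces between successive starts had a median length of 32 bases, and 22.5% of 5300 with a sequence held an ATG. Among 3435 pieces of at least 20 bases the median GC content was 66.3%. The annotated start codons lay downstream of the last tandem start in 94.0% of the events, so most of these tandem starts differ within the leader. In 256 events a start opened exactly at an ATG, as did 207 (6.02%) of the most downstream starts. Such a start leaves no leader before that ATG, and whether it is the annotated start codon was not tested. In 87 events (2.53%) a start codon came before the last start, and 119 had no coding transcript.

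The first question was how far the use of tandem starts differed between Ag and Ag+Costim cells by Psi, the fraction of an event's reads that Whippet gave to a node. Psi was deposited as 1 value per group, so it carries no replicate error and no test. The moved share of an event was defined as the mean of the Psi gained and the Psi lost over its nodes, from 0 to 1. Among 2741 events of genes with a mean of at least 10 CPM in both groups, 803 (29.3%) had a moved share of at least 0.1, called shifted here, and the median moved share was 0.039. For a comparison of node types the level was looked up by gene name, which left out some tandem start nodes of these events. Of 6830 tandem start nodes matched in this way, 1495 (21.9%) had a Psi difference of at least 0.1. The share was 5.57% of all 87875 nodes, 25.7% of tandem transcription end nodes, 10.5% of alternative first exons and 1.39% of core exons.

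The share of shifted events depended on the level of the gene. It was 56.9% in genes below 1 CPM, 51.8% from 1 to 10, 42.3% from 10 to 30, 27.8% from 30 to 100 and 14.9% in genes at 100 CPM or more. Events with 2 starts were shifted in 25.3% of cases and events with 5 or more in 42.0%. Events that spanned fewer than 10 bases were shifted in 36.8% and those of 500 bases or more in 24.0%. The number of reads behind each Psi was not used here, so how much of this gradient is counting error was not tested.

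**Figure D1:**
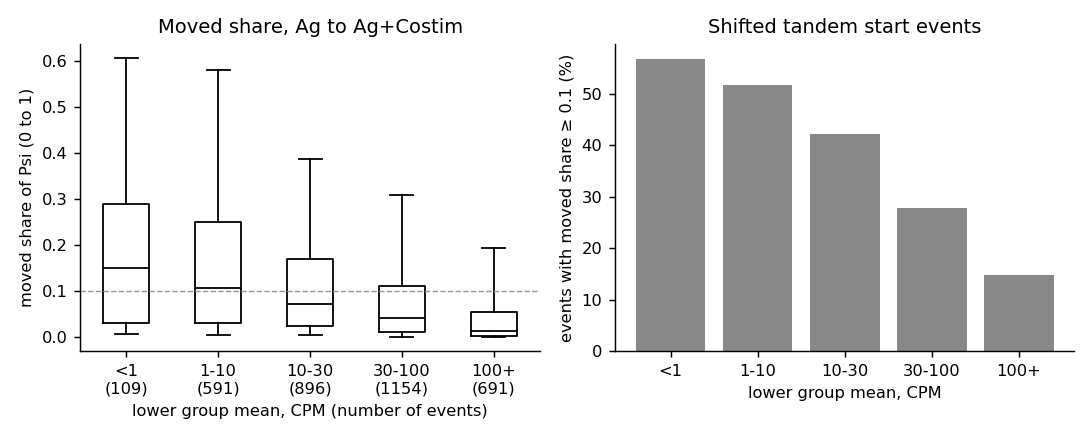
Moved share of Psi between Ag and Ag+Costim by the lower group mean of the gene in CPM (left, boxes from the 25th to the 75th percentile with the median, whiskers from the 5th to the 95th percentile, number of events in parentheses, dashed line at 0.1) and the percentage of events past 0.1 (right). The percentage shifted goes from 56.9% below 1 CPM to 14.9% at 100 CPM or more.

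The next 5 events had the largest moved shares among shifted events whose leading start was tested and not called on replicates. That test is described below, and events with a called or untested leading start were left out of this ranking. At Eif4g1, the scaffold of the cap-binding translation complex, Psi of start 2 of 5 was 0.857 in Ag and 0.030 in Ag+Costim. The largest gain of this event was at start 4, from 0.145 to 0.673, and the listed Psi of its nodes summed to 1.43 in Ag. At Tanc1, a scaffold protein, Psi of start 1 was 0.854 and 0.085, and that of start 2, which lies 2 bases further, 0.144 and 0.915. At Csnk1g1, a casein kinase, Psi of start 1 of 4 was 0.124 and 0.866, at Vps9d1 Psi of start 1 of 2 was 0.868 and 0.124, and at Sun2, a nuclear envelope protein, Psi of start 3 of 3 was 0.766 and 0.063. None of these 5 genes exceeded 33.4 mean CPM in its lower group.

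**Figure D2:**
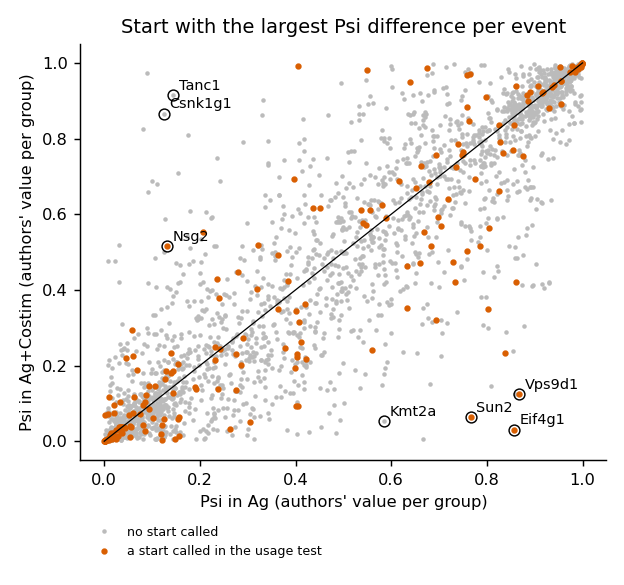
Psi in Ag against Psi in Ag+Costim for the start with the largest Psi difference in each of 2741 events of genes with at least 10 CPM in both groups, 1 authors' value per group and axis. Orange points mark the 188 events with a start called in the test on transcript counts, and circles mark named genes. Tanc1 and Csnk1g1 lie far above the diagonal and Eif4g1, Vps9d1 and Sun2 far below it.

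Read as listed, 453 of the 803 shifted events moved their Psi-weighted mean start downstream and 350 upstream in Ag+Costim, by a median of 6.17 bases. The order of the nodes in the table is not certain, because the study's own event lists give paths beside tandem start nodes that read in the mirrored order. With Psi assigned in mirrored order the counts were 356 downstream and 447 upstream, so the direction is not settled by these values. Events with 2 starts gave 227 downstream and 213 upstream as listed. Moved shares are the same in either order.

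Of 194 genes in a list of T cell receptors, signalling proteins and transcription factors, 66 had a tandem start event, 57 of them at the level of 10 CPM, and 13 of these (22.8%) were shifted, beside 29.6% of all genes with an event at that level. They were Kmt2a, Il6st, Mxd4, Klrc1, Il18r1, Ccr2, Slamf6, Cbl, Traf3, Btla, Bcl2l11, Il12rb1 and Fyn, and 0 of them had a start called in the edgeR test on replicates described below, with limma or with diffSpliceDGE. At an unadjusted p below 0.05 the number was 3, 4 and 2 genes by these tools. Kmt2a, a histone H3 lysine methyltransferase, had the largest moved share of them at 0.533, with a Psi of 0.415 in Ag and 0.947 in Ag+Costim at start 1. Its transcript counts showed no such exchange, since start 1 held 99.8% ± 0.217 (SD, n = 5) of the event's counts in Ag and 98.9% ± 0.758 in Ag+Costim. At Il6st, the shared signalling receptor gp130, Psi of start 1 of 3 was 0.365 and 0.651. At Slamf6, a receptor of the SLAM family, Psi of start 1 of 3 was 0.753 and 0.570, whereas its share of counts was 52.2% ± 5.71 in Ag and 59.4% ± 2.29 in Ag+Costim. Of 54 genes with an event whose symbols begin with Rpl, Rps, Eef or Eif, 9 (16.7%) had a shifted event at any expression level, beside 34.4% of all genes with an event. They were Eif4g1, Eef1d, Eif4a2, Eif3k, Rps6kb1, Rps6kb2, Eif2ak3, Eefsec and Eif4g3, of which Rps6kb1, Rps6kb2 and Eif2ak3 are kinases, and Eefsec is the elongation factor for selenocysteine.

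The second measure of start use has replicates. The authors' transcript counts were summed over all annotated transcripts beginning in a node, and the count of a start was compared between groups relative to the total of its event in the same library, with edgeR's quasi-likelihood test over all 12 libraries and Benjamini-Hochberg adjustment over 34777 starts. A start's count stands for whole transcripts, estimated by StringTie from single reads of 100 bases. It is not a direct reading of the 5′ end, also where starts lie only a few bases apart. In only 96 of 3390 events (2.83%) did 2 starts carry transcripts with identical introns, and in 5 of the 211 events with a called start (2.37%). Use of a start and other differences between the transcripts that begin there therefore cannot be told apart.

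Between Ag+Costim and Ag, 279 of 7241 tandem starts tested (3.85%) changed their share at an adjusted p below 0.05, 118 higher and 161 lower in Ag+Costim, in 211 of 2953 events. The count was 180 without Ag+Costim replicate 2, 548 with limma and 99 with diffSpliceDGE. Over all starts tested 5.09% were called, 1.75% higher and 3.34% lower, and over the annotated starts outside the events 5.41%. Tandem starts were thus not called more often than starts in general. The shares are of unlike totals, however. A tandem start was set against its event, and any other start against the starts of its gene outside the events. The shares of the 5 Ag and 5 Ag+Costim libraries did not overlap for 483 tandem starts (6.67%), against 9.05% of all starts, and for 246 of the 279 called. The median size of the difference at called starts was 14.8 percentage points. Of 2909 most upstream starts 94 were called, 47 in each direction, and of 2747 most downstream starts 104 were called, 34 higher and 70 lower. In simulated libraries the test recovered 33 of 65 events whose odds had been changed 64 times, 9 of 65 at 8 times and 3 of 65 at 4 times. Many changes of moderate size were thus missed in the simulation. It drew each start independently, with a spread estimated without the event's total, so the rates in the real libraries may differ.

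Relative to Naive cells, 230 tandem starts (3.18%) were called in Ag, 122 higher and 108 lower, against 4.11% of all starts, with 1.59% higher and 2.52% lower. In Ag+Costim 435 (6.01%) were called relative to Naive, 205 higher and 230 lower, against 8.24% of all starts, with 2.59% higher and 5.65% lower. Without Naive replicate 2 these counts were 139 and 198, and without Naive replicate 1 the count for Ag+Costim was 256. All 3 comparisons share libraries in pairs, so their lists are not independent of each other.

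**Figure D3:**
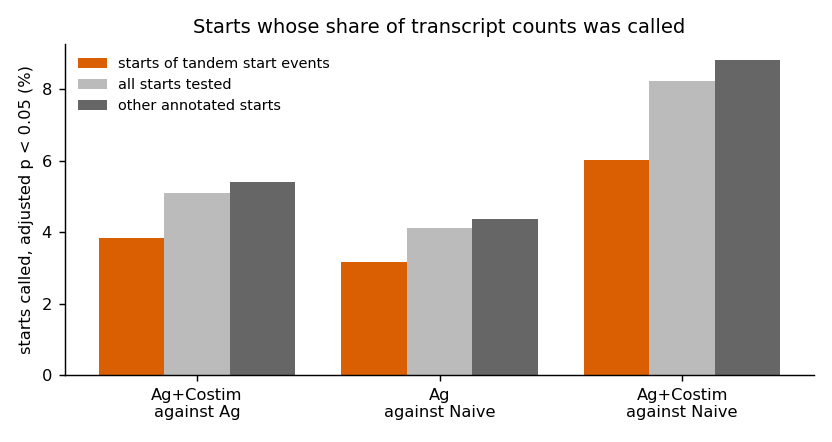
Percentage of starts whose share of transcript counts was called (adjusted p below 0.05) in each of 3 comparisons, for starts of tandem start events, all starts tested and annotated starts outside these events. The tandem starts lie below both other bars in every comparison, at 3.85%, 3.18% and 6.01%. Shares of tandem starts are of their event, and those of other starts are of the gene's starts outside the events.

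The genes in the next paragraphs were chosen for small p-values after the values had been seen. Nsg2 encodes a membrane trafficking protein best known from neurons. Start 1 of 2 held 56.8%, 60.6%, 55.6%, 64.9% and 62.3% in Ag, 84.0%, 84.3%, 88.5%, 84.6% and 82.6% in Ag+Costim, and 83.7% and 82.3% in Naive. All Ag libraries were below all others, and the log2 ratio of Ag+Costim to Ag was 0.50 (SE 0.046, adjusted p = 0.000333). Start 2, 39 bases downstream, fell to 15.2% ± 2.19 (SD, n = 5, log2 ratio -1.39, adjusted p = 0.000266). Against Naive the share of start 1 was lower in Ag (log2 ratio -0.47, adjusted p = 0.0027), while in Ag+Costim the log2 ratio was 0.03 (adjusted p = 0.879). The listed Psi of start 1 was 0.867 in Ag and 0.485 in Ag+Costim, opposite to the share of counts unless it is read in mirrored order. The expression of Nsg2 differed by a log2 fold change of 0.08 (adjusted p = 0.715) between Ag+Costim and Ag.

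Zbp1, a sensor of left-handed nucleic acids, had a like order of the groups. Start 1 of 2, which lies 13 bases upstream of start 2, held 32.6%, 46.9%, 47.6%, 34.0% and 43.0% in Ag, 66.5%, 71.0%, 68.3%, 67.5% and 70.3% in Ag+Costim, and 69.0% and 66.3% in Naive. All Ag libraries were below all others, with a log2 ratio of 0.75 for Ag+Costim to Ag (SE 0.106, adjusted p = 0.00325). The listed Psi of this start went the other way, from 0.147 to 0.005. Nlrc3, a receptor of the NLR family that restrains immune signalling, had a start 1 of 2 at 13.3%, 19.7%, 13.8%, 19.6% and 19.1% in Ag and 32.8%, 32.9%, 32.7%, 35.7% and 35.2% in Ag+Costim. Its Naive libraries were at 27.5% and 31.6%, between the groups. The rise had a log2 ratio of 0.99 (SE 0.124, adjusted p = 0.00174), and the listed Psi of this start went the same way, from 0.798 to 0.911, though not in mirrored order.

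Zfyve27 encodes protrudin, a protein of the endoplasmic reticulum. Its start 1 of 2 held 11.5% ± 2.16 of the counts in Ag, 29.3% ± 1.32 in Ag+Costim (SD, n = 5 each) and 37.4% and 41.6% in Naive, and the Ag and Ag+Costim libraries did not overlap (log2 ratio 1.35, adjusted p = 0.000461). Its listed Psi was 0.242 in Ag and 0.121 in Ag+Costim, opposite to the share of counts unless read in mirrored order. Il1rap is the accessory chain of the interleukin 1 and interleukin 33 receptors. Its start 4 of 4 lies 4 bases downstream of start 3 and held 38.9%, 43.4%, 37.8%, 45.4% and 39.1% in Ag against 72.6%, 77.3%, 81.7%, 80.02% and 77.1% in Ag+Costim. The adjusted p was 0.000459, and start 3 fell from 57.9% ± 3.11 to 22.2% ± 3.53. Naive cells were at 65.2% and 74.0% for start 4, nearer to Ag+Costim than to Ag. Counts of this event were low, from 287 to 824 a library. They are estimates for whole transcripts, so a switch between starts 4 bases apart was not observed directly.

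In other genes the Ag+Costim libraries stood apart from both the Ag and the Naive libraries. Luc7l is a component associated with the U1 splicing particle, and its start 2 of 3 held 25.5%, 30.7%, 22.4%, 25.9% and 22.3% in Ag, 62.0%, 61.4%, 47.0%, 58.1% and 62.8% in Ag+Costim and 23.6% and 26.1% in Naive. The log2 ratio of Ag+Costim to Ag was 1.20 (SE 0.109, adjusted p = 0.000311), and that of Ag to Naive 0.03 (adjusted p = 0.984). Emd encodes emerin of the inner nuclear membrane. Its start 1 of 4 rose from 22.9% ± 1.23 to 40.5% ± 4.34 (adjusted p = 0.000411), with 21.1% and 21.3% in Naive, and start 4 fell from 76.5% ± 1.25 to 59.1% ± 4.39. Prpf18, a factor of the second splicing step, had a start 1 of 2 that fell from 15.7% ± 3.24 to 4.55% ± 0.705 (adjusted p = 0.000283), and Naive libraries were at 15.3% and 14.5%.

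Dhx9, RNA helicase A, showed the plainest pattern of presence. Start 2 of 2, located 52 bases downstream of start 1, was listed at 0 in all Ag and both Naive libraries and held 53.5%, 60.1%, 53.3%, 56.9% and 39.1% in Ag+Costim. Start 1 accordingly fell from 100% in every Ag library to 47.4% ± 8.01 (adjusted p = 0.000412). Counts were divided between overlapping transcripts by StringTie, so a listed 0 is an estimate rather than an observed absence. The listed Psi of start 2 was 0.967 in Ag and 0.896 in Ag+Costim, a smaller difference and in the other direction. Of the called starts, 10 were at 0 in every Ag library and 2 in every Ag+Costim library, and no fold change is given for these.

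**Figure D4:**
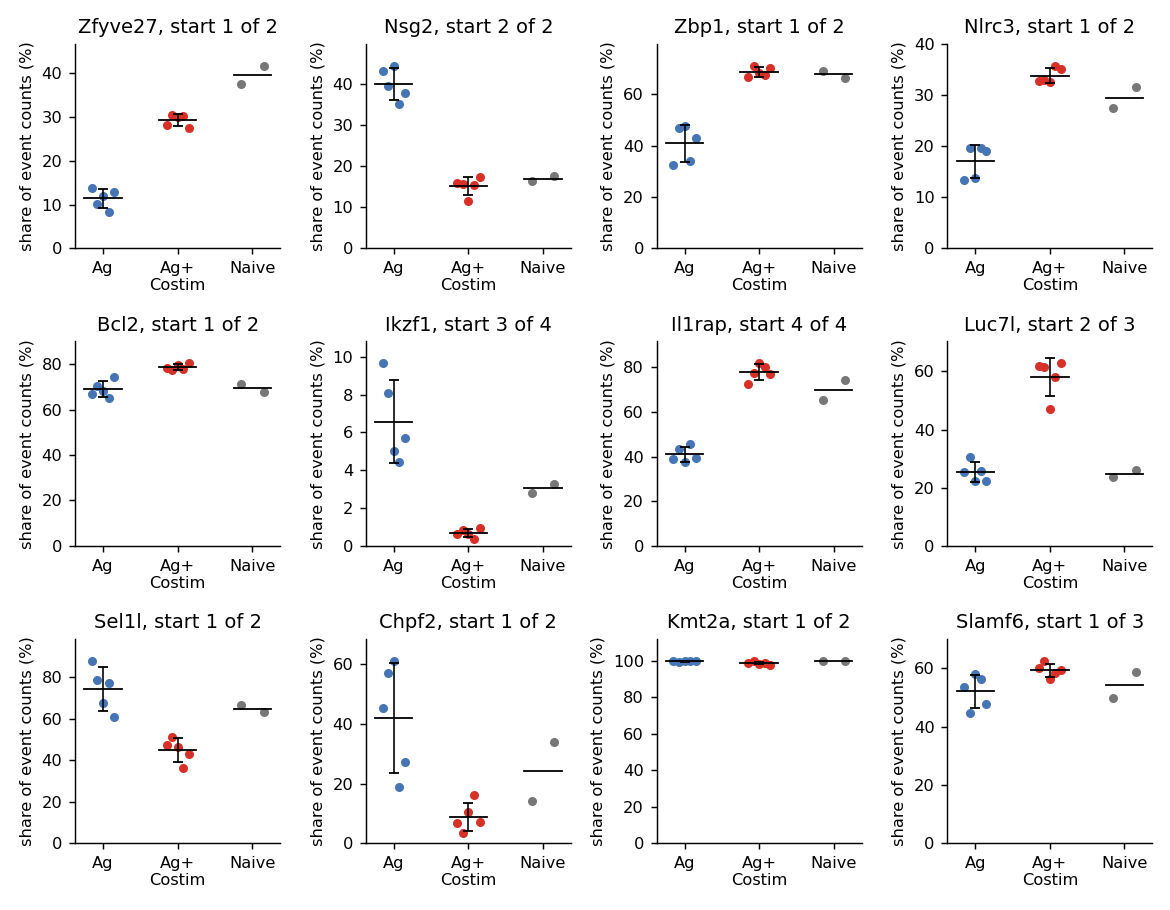
Share of an event's transcript counts held by 1 start, in percent, in each library of Ag (blue), Ag+Costim (red) and Naive (grey), with the group mean as a line and the SD as a bar for groups of 5. In the first 10 panels the Ag and Ag+Costim libraries do not overlap, while for Kmt2a and Slamf6, which were shifted in Psi and not called, they overlap.

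Of 58 genes of the T cell list with a tested start, 9 (15.5%) had a called start, beside 7.27% of all 2904 genes tested at tandem starts. These shares were not matched for expression, and whether the list differs from other genes was not tested. The 9 genes were Arhgef1, Ikzf1, Bcl2, Ets1, Lcp2, Nfatc2, Prdm1, Ptprc and Traf1. In the lower group Ptprc had a mean of 1246 CPM and Arhgef1 900 CPM, while Prdm1 had 0.930 CPM. At Bcl2, the inhibitor of apoptosis, start 1 held 67.0%, 70.2%, 68.2%, 65.2% and 74.2% in Ag, 78.4%, 77.4%, 79.6%, 78.1% and 80.3% in Ag+Costim and 71.4% and 67.7% in Naive. The rise was small next to the level (log2 ratio 0.19, SE 0.0336, adjusted p = 0.0101), with no overlap, and start 2 lies 1095 bases downstream. Its Psi at start 1 went the other way as listed, from 0.286 to 0.202. Bcl2 as a gene fell by 0.95 on the log2 scale (adjusted p = 3.69e-05). Ikzf1 encodes the lymphoid transcription factor Ikaros, and its start 3 of 4 was a minor start at 9.65%, 8.07%, 4.99%, 4.46% and 5.71% in Ag and 0.611%, 0.828%, 0.617%, 0.392% and 0.974% in Ag+Costim. The fall had a log2 ratio of -3.26 (SE 0.315, adjusted p = 0.000411), with Naive at 2.80% and 3.28%, while Psi of this start was 0.857 in both groups and the gene rose by a log2 fold change of 1.24 (adjusted p = 4.18e-07).

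Arhgef1, an activator of RhoA in lymphocytes, had the smallest p of these. Its start 4 of 4 fell from 21.1% ± 4.43 in Ag to 4.23% ± 0.692 in Ag+Costim (SD, n = 5 each, adjusted p = 8.12e-05), with 10.01% and 9.88% in Naive. The minor starts of Lcp2 (SLP-76, an adaptor of the T cell receptor) and Traf1 (an adaptor that binds 41BB) fell as well. Start 2 of Lcp2 went from 8.21% ± 3.61 to 2.78% ± 0.733 (adjusted p = 0.0183) and start 2 of Traf1 from 10.4% ± 2.27 to 3.31% ± 1.37 (adjusted p = 0.0127). For Nfatc2, the transcription factor NFAT1, start 2 of 3 was at 0 in 4 Ag libraries and 0.462% in Ag replicate 1, and at 47.3%, 52.5%, 47.5%, 86.0% and 78.7% in Ag+Costim. Naive libraries were at 23.0% and 72.9%, too far apart to place them.

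Ets1, Ptprc and Prdm1 rested on weaker evidence when single libraries were left out or because counts were few. With a replicate block, described at the end, these genes had no call left, and neither had Lcp2 or Traf1. Start 2 of Ets1 went from 3.34% ± 1.92 to 0.678% ± 0.255, and this call was lost without Ag replicate 1 or Ag+Costim replicate 1, 2 or 3 (adjusted p up to 0.0649). Start 2 of Ptprc, the phosphatase CD45, went from 7.28% ± 2.05 to 4.14% ± 0.723 with overlapping libraries, and the call was lost without any of 9 libraries (all but Ag replicates 3 and 5 and Ag+Costim replicate 1), at an adjusted p up to 0.0903. Prdm1 encodes Blimp-1, a transcription factor of effector lymphocytes, and the gene had only 0.930 ± 0.261 CPM in Ag and 17.4 ± 3.89 in Ag+Costim. Its start 2 was at 0 in every Ag and Naive library and held 45.7%, 34.9%, 16.9%, 52.7% and 42.2% in Ag+Costim, with as few as 29 counts of the event in a library.

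The 2 measures seldom pointed to the same events. Among the 803 shifted events, 63 (7.85%) had a called start, and among 1938 events that were not shifted, 125 (6.45%) did. The leading start of 706 shifted events could be tested, and 24 were called, 13 of them in the direction of the listed Psi. In mirrored order the number was 13 as well, and 4 events were the same way in both orders. Among the called starts in events at this level, 116 moved with the listed Psi and 137 with the mirrored one, and of 83 in shifted events 37 and 43 did. Across 6946 nodes the Pearson correlation of Psi with the share of counts, given as a description without a test since nodes of 1 event share their total, was 0.007 in Ag and 0.005 in Ag+Costim as listed, and 0.149 and 0.159 in mirrored order. In 1742 events with 2 starts, the median listed Psi of the upstream start in Ag was 0.439, whereas its median share of transcript counts was 84.3%.

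**Figure D5:**
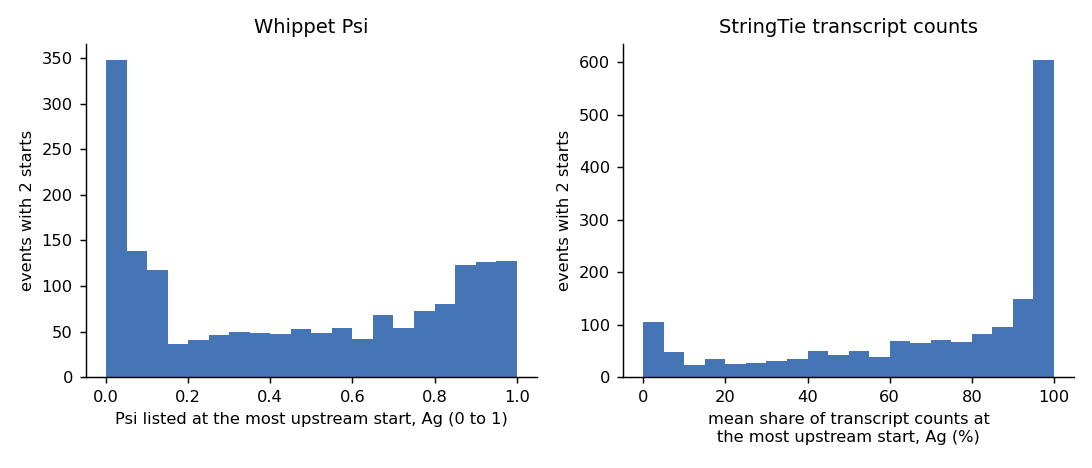
Number of events with 2 starts by the value of the most upstream start in Ag, as listed Whippet Psi (left, 0 to 1) and as the mean share of StringTie transcript counts (right, percent), for genes with at least 10 CPM. Psi piles up near 0 with a second rise near 1, while the share of counts piles up near 100%.

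The 13 events described next were chosen because both measures moved the leading start the same way when Psi is read as listed. Of these, 8 have 2 starts, so that each goes the opposite way in mirrored order. At the leading start, Selenoh, Smpd4, Sptan1 and Xpr1 alone go the same way in both orders. The Psi-weighted mean start keeps its direction in mirrored order only at Sptan1, at 7.97 bases downstream as listed and 6.38 mirrored. By the Psi-weighted mean start as listed, Ube3c, Hook1, St8sia4, Secisbp2, Clk2, Nlrc3 and Chchd3 moved toward upstream starts. By the same measure Chpf2, Sel1l, Xpr1, Selenoh, Smpd4 and Sptan1 moved toward downstream starts. Counts of single starts did not always go that way. Start 1 of Smpd4, also called, rose in counts (log2 ratio 5.32 to 6.05 when 1 library was left out), although its listed Psi fell. Start 2 of Selenoh, called too, rose (0.28 to 0.37) while start 3 fell. In Ube3c, a ubiquitin ligase, start 2 of 2 fell from 17.2% ± 2.62 to 7.89% ± 1.61 (SD, n = 5 each, adjusted p = 0.00688), and its Psi was 0.733 and 0.422. In St8sia4, which adds polysialic acid to proteins, start 2 fell from 19.9% ± 6.44 to 8.22% ± 1.62 (adjusted p = 0.0121), and its Psi was 0.826 and 0.661. In Chchd3, a mitochondrial inner membrane protein, start 2 fell from 14.2% ± 4.14 to 6.22% ± 0.884 (adjusted p = 0.00725). In Clk2, a kinase of splicing factors, start 3 of 3 fell from 42.3% ± 5.63 to 28.4% ± 2.65 (adjusted p = 0.0116). Start 1 of Clk2 fell too, from 13.7% ± 3.39 to 7.84% ± 1.57 (adjusted p = 0.0490), although its listed Psi rose from 0.330 to 0.458. In each of these 4 genes the Ag and Ag+Costim libraries did not overlap.

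Among those listed toward downstream starts, Sel1l encodes an adaptor of protein degradation at the endoplasmic reticulum. Its start 1 of 2 held 88.0%, 78.6%, 67.7%, 77.5% and 60.8% in Ag and 47.4%, 51.5%, 46.6%, 36.1% and 43.0% in Ag+Costim, with 66.8% and 63.2% in Naive. The log2 ratio was -0.73 (SE 0.115, adjusted p = 0.0056), Psi of start 1 was 0.632 and 0.352, and start 2 lies 28 bases downstream. Start 2 was called too, at 25.5% ± 10.5 and 55.1% ± 5.76, and lost its call without any of 9 libraries (all but Ag replicates 1, 3 and 5), at an adjusted p up to 0.0874. Start 2 of Xpr1, a phosphate exporter, fell from 28.1% ± 6.41 to 13.4% ± 2.60 (adjusted p = 0.0141), and start 5 of 5 of Smpd4, a sphingomyelinase, from 3.19% ± 0.940 to 0.763% ± 0.263 (adjusted p = 0.00541). For Chpf2, an enzyme of chondroitin synthesis whose starts lie 9 bases apart, start 1 went from 45.2%, 56.9%, 61.0%, 18.8% and 27.1% in Ag to 6.91%, 3.51%, 10.4%, 16.1% and 7.11% in Ag+Costim. This call (adjusted p = 0.0271) was lost without Ag replicate 1, 2 or 3 or Ag+Costim replicate 1, 2, 3 or 5, with an adjusted p up to 0.0706.

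The calls of other genes in this set were as fragile. Start 2 of Hook1, a microtubule adaptor, and start 2 of Secisbp2, which binds selenoprotein mRNAs, each lost their call without any of 10 libraries, at an adjusted p up to 0.0883 (all but Ag replicates 2 and 5) and 0.109 (all but Ag replicates 2 and 3). Start 3 of 5 of Selenoh, a selenoprotein, lost it without Ag replicate 2 or 3 or Ag+Costim replicate 1, 2 or 3 (adjusted p up to 0.0659). Start 1 of Sptan1, alpha spectrin, was at 3.09% in Ag replicate 3 and 89.2% to 98.6% in the other Ag libraries, and its call was lost without any of 11 libraries (all but Ag replicate 3), at an adjusted p up to 0.0893. Start 1 of Chchd3, called beside start 2, lost its call without any of 10 libraries (all but Ag replicates 4 and 5, adjusted p up to 0.0998). In Clk2, start 1 lost it without any of 10 (all but Ag replicate 2 and Ag+Costim replicate 4, adjusted p up to 0.111) and start 2 without Ag replicate 1 or 2 or Ag+Costim replicate 1, 2, 3 or 5 (adjusted p up to 0.0701).

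Among the 5 events with the largest moved shares whose leading start was tested and not called, Vps9d1, Sun2 and Eif4g1 had another start called. Start 2 of Vps9d1 went from 14.2% ± 9.34 to 4.04% ± 1.02, against a Psi of 0.129 and 0.872, and its call was lost without any of 10 libraries (all but Ag replicates 2 and 3), at an adjusted p up to 0.0934. Start 1 of Sun2 rose from 3.35% ± 1.91 to 45.4% ± 18.0, a call lost without Ag replicate 1, 2 or 3 or Ag+Costim replicate 2 or 5 (adjusted p up to 0.0544). Start 5 of Eif4g1 varied from 0.909% to 92.0% among the Ag libraries and was at most 0.0522% in Ag+Costim. For Tanc1, start 1 held 35.4% ± 13.7 in Ag and 51.6% ± 16.9 in Ag+Costim, the reverse of its Psi as listed, with an adjusted p of 0.477.

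The expression of the genes themselves was compared next. Of 3363 genes with a tandem start event that were tested, 2298 (68.3%) changed between Ag+Costim and Ag, 1201 higher and 1097 lower, against 53.1% of all genes (26.6% higher and 26.5% lower). At 10 CPM or more in both groups the share was 70.7% of event genes and 68.8% of other genes, which is closer than over all genes. Of the 791 tested genes with a shifted event, 349 (44.1%) were higher and 205 (25.9%) lower, beside 38.4% and 32.2% of event genes at that level. The median log2 fold change was 0.22 for the shifted genes and 0.05 for event genes at that level. Against Naive, 2067 event genes (61.5%) changed in Ag, 1094 higher and 973 lower, beside 46.7% of all genes, with 24.2% higher and 22.5% lower. In Ag+Costim 2107 (62.7%) changed relative to Naive, 1160 higher and 947 lower, beside 52.3% of all genes, with 26.9% higher and 25.4% lower.

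Genes of the machinery that sets transcription starts were called in both directions, at a share near that of other expressed genes. In a list of 99 general transcription factors, Mediator, pausing and nucleosome factors, 44 were called higher with costimulation and 21 lower. That was 65.7% of the list, beside 53.1% of all genes and 68.8% of genes without an event at 10 CPM or more. Of all genes 26.6% were higher and 26.5% lower, and of genes without an event at 10 CPM or more 38.9% and 29.9%. With upper-quartile scaling the split of the list was 38 and 37. The median log2 fold change of the list was 0.15, against -0.05 over all genes and 0.08 over those genes without an event. The genes named next are examples, and none of them is among the 21 called lower. Polr2a, the largest subunit of RNA polymerase II, had 29.3 ± 7.29 CPM in Ag and 81.4 ± 18.7 in Ag+Costim (log2 fold change 1.48, SE 0.17, adjusted p = 8.67e-06). Taf1, the largest subunit of TFIID, rose by 1.26 (adjusted p = 2.25e-05), Med12 of the Mediator kinase module by 1.30 (adjusted p = 6.3e-06), and the elongation factor Supt5 by 1.09 (adjusted p = 3.3e-07). Tbp, the TATA-binding protein, had 85.7 ± 8.77 and 85.2 ± 4.78 CPM (adjusted p = 0.947, with a fall by 0.20 that was called under upper-quartile scaling). Against Naive, Polr2a was lower in Ag (log2 fold change -1.17, adjusted p = 0.000568), and Ag+Costim differed from Naive by 0.30 (adjusted p = 0.274).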

How the data were processed

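RNA of 12 libraries (5 Ag, 5 Ag+Costim, 2 Naive) was sequenced by the authors as single reads of 100 bases (SMART-Seq v4, Nextera XT). Per the labels, reads were aligned to mm10 with HISAT2 2.1.0 and SAMtools 1.9, and counts per gene and transcript, deposited without normalization, came from StringTie 2.1.0, which divides reads among overlapping isoforms. Psi, a fraction from 0 to 1, was computed by the authors with Whippet and deposited as 1 value per group. How replicates were combined is not given in the sources used here. The Psi difference and its probability in the same table are the authors' own comparison and were not used. The FPKM table, the sequencing sheet and the sample sheet were not used. Value columns that could not be mapped to a sample numbered 0. Gene entries without an annotated identifier, 0.0508% to 0.121% of a library's counts, were left out.

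Nodes of a gene that touch were joined into events. In 4 cases separate runs of a gene were joined as well, where a run held 1 node or its Psi in Ag summed to under 0.9. Starts under 20 bases apart were merged only as an alternative. Transcripts were matched to GENCODE vM21 (141862 of 168207). Genes and starts were tested in R 4.3.3 with edgeR 4.0.16 (TMM, filterByExpr, robust quasi-likelihood test, two-sided, 1 term per group), with Benjamini-Hochberg adjustment and a threshold of 0.05. For starts the log of the event's or gene's total in the library was the offset. Starts outside the events were the distinct annotated 5′ ends of genes with at least 2 starts. The test written in the design, diffSpliceDGE, called 104 unchanged events in simulated counts of Ag+Costim and Ag (32138 starts in 10026 groups), where the offset model called 2 and limma diffSplice 23. It was replaced for that reason, after counts of calls from several tests on the real libraries had been seen, and the larger simulated odds were added after small ones were seldom recovered. The simulated starts of a gene varied independently of each other, which real ones need not do. In simulated gene counts 94 of 197 genes changed by a fold of 2 were recovered with 3 false calls among 18070 genes. A first check of GC content, CpG and TATA letters before the starts was void, since only 73.0% of nodes had 100 bases of sequence before them (80% needed).

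Named genes were (1) up to 10 events per direction with the largest moved share whose leading start was called the same way. Others were (2) T cell list genes with a shifted event. Group (3) held the 5 largest moved shares with a leading start tested and not called. Group (4) held shifted events of genes with Rpl, Rps, Eef or Eif symbols. Also named, and added after values were seen, were the smallest p-values in events of at least 50 counts a library, and T cell list genes with a called start. Some genes of the T cell list are not reported here and were left out of its counts. The members, lists and thresholds were chosen with earlier results of these data known. Alternatives were limma 3.58.1, DESeq2 1.42.0, other scalings, filters and thresholds, a replicate block and leaving out each library. Tables and plots were made with Python 3.11.15, pandas 2.3.3, numpy 2.4.6 and matplotlib 3.10.9.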

Additional observations from a re-analysis of the deposited data

Results flagged for a closer look

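In 108 groups of 5 libraries, the shares of the called starts named above were examined for a library far from the others, with Dixon's criterion of 0.71 for the gap over the range, and 8 values passed it. Chance flags about 1 group in 20. In Ag, replicate 3 held 3.09% of Sptan1 at start 1 where the others held 89.2% to 98.6%, replicate 4 held 14.3% of Traf1 at start 2 (others up to 10.4%) and 0% of Sun2 at start 1 (others from 3.61%), replicate 1 held 0.462% of Nfatc2 at start 2 and replicate 5 0.742% of Tle3 at start 6, both with the other libraries at 0. In Ag+Costim, replicate 4 held 6.48% of Secisbp2 at start 2 (others up to 4.59%) and 0.0522% of Eif4g1 at start 5 (others at 0), and replicate 1 held 5.41% of Ptprc at start 2 (others up to 3.98%). Ag replicate 4 is also the library with the fewest counts, and the part of depth in these values was not tested.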

How the results depend on the processing

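The number of shifted events was 803, and 1234 at a moved share of at least 0.05, 351 at 0.2 and 424 at 30 CPM or more. Downstream minus upstream events was 103, then 156, 55 and 54 under those settings, and reversed to -91 with Psi in mirrored order (added after seeing the data). Tandem starts called in Ag+Costim against Ag, Ag against Naive and Ag+Costim against Naive numbered 279, 230 and 435, with limma diffSplice 548, 496 and 695, and with diffSpliceDGE (added) 99, 73 and 54, the cause of which was not tested beyond the simulation. Leaving out 1 library at a time gave 180 to 269 (180 without Ag+Costim replicate 2), 139 to 328 and 198 to 501. Genes with an event that were called ranged from 2168 to 2381, 1433 to 2206 and 1629 to 2241, and basal transcription genes from 64 to 68, 44 to 63 and 40 to 61, with 44 to 46 higher and 20 to 24 lower in Ag+Costim against Ag. Upper-quartile scaling raised those lower from 21 to 37. With a replicate block 79 starts were called in place of 279. Deviations of same-numbered Ag and Ag+Costim libraries correlated at 0.288, 0.162, 0.137, -0.009 and 0.006 for numbers 1 to 5. Numbers 1, 2 and 3 matched their own number best and 4 and 5 each other, so these values do not settle whether the numbers pair the libraries. The main test did not pair them. Of 56 named called starts, 41 stayed called without each library in turn, and 15 were lost without some. The block kept 24 of 54 tested, and of 34 named genes with such a start 17 had none left (Chchd3, Chpf2, Clk2, Ets1, Lcp2, Prdm1, Ptprc, Secisbp2, Sel1l, Selenoh, Smpd4, Sptan1, St8sia4, Sun2, Traf1, Vps9d1 and Xpr1). Of the same named starts, diffSpliceDGE kept 9 and limma 48 of 56. No named start changed direction when a library was left out.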
